A study of Mus musculus with 21 samples.

Results

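The mouse miR-29 family was followed across 7 types of primary cells by small RNA sequencing. Its 5 listed mature entries were mmu-miR-29a-3p, mmu-miR-29b-3p, mmu-miR-29c-3p, mmu-miR-29a-5p and mmu-miR-29c-5p (written without the species prefix from here on). They were picked by name from 1556 mature miRNA entries, with earlier results of these data known. The 2 remaining arms of the same genes, miR-29b-1-5p and miR-29b-2-5p, were read beside them and are always named apart from the 5. All 7 arms held at least 10 tags in at least 3 libraries and were tested.

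Of the 7 cell types, 4 came from the testis: peritubular myoid (PTM) cells of the tubule wall, Sertoli cells, Leydig cells and germ cells (Germ). The other 3 were smooth muscle-like cells, vascular (VSMC), intestinal (ISMC) and tracheal (TSMC). Every type had 3 libraries of untreated primary cells of the C57BL/6J strain, all grown in DMEM/F12 with fetal bovine serum, and no animal age was stated. Testicular cells were isolated with published methods and smooth muscle cells were bought from a supplier, so tissue and source cannot be told apart between them. The libraries of a type are not said to come from separate animals or cultures, so the p-values may measure technical spread alone.

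miRNAs guide Argonaute proteins to mRNAs, mostly by pairing of the seed near the 5′ end, and each hairpin can release a 5p and a 3p arm. In the miR-29 genes the 3p arms are the known guides and the 5p arms are usually the passenger strands. The guides repress many mRNAs of the extracellular matrix, among them collagens, elastin and fibrillin, and are known to fall when TGF-β drives fibrosis. PTM cells contract the seminiferous tubule and lay down part of its basement membrane, and smooth muscle cells secrete the matrix of vessel, gut and airway walls.

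The guide arms are shown first because they differ in few bases, which bears on how their tags were told apart. The seed (bases 2 to 8) is in capitals, sequences are from RefSeq (GRCm38.p6), and 7 of 7 arms were matched by name.
miR-29a-3p: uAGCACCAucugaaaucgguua
miR-29c-3p: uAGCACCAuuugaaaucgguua
miR-29b-3p: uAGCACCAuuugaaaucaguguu
The 3 guides shared the seed AGCACCA, which no other mature name in the RefSeq table held. Counted from the 5′ end, miR-29a-3p differed from miR-29c-3p by the single change C10U. miR-29c-3p and miR-29b-3p shared their first 17 bases and differed by G18A, U21G and A22U, with 1 further base on miR-29b-3p. The authors' rule for tags that match more than 1 entry is not given in the sources used here. Counts of the 3 guides are therefore uncertain where a tag was short or carried a base error.

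The 5p arms that the results turn on had unlike seeds, again in capitals.
miR-29c-5p: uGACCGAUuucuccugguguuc
miR-29b-1-5p: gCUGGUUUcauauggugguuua
Their tags can be assigned to 1 gene each, whereas miR-29b-3p has the same sequence at both of its genes and 1 entry counts both. The 4 genes lie in 2 pairs (GRCm38/mm10, GENCODE vM21). Mir29a (chr6:31062660-31062747) and Mir29b-1 (chr6:31063023-31063093) are both on the minus strand, 275 bases apart, and Mir29b-1 overlaps the annotated lincRNA Gm27019 by 2 bases. Mir29b-2 (chr1:195037040-195037120) and Mir29c (chr1:195037547-195037634) are on the plus strand, 426 bases apart, inside an exon of the noncoding transcript A330023F24Rik. The same bases lie opposite an exon of Cd46, which is on the minus strand.

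Libraries held 18.1 to 26.1 M tags. Mature miRNAs took 2.02% to 3.8% of tags in Germ and 22.1% to 62.5% in the other 18 libraries, so Germ members rest on 0.525 to 0.958 M mature tags and the others on 4.04 to 14.6 M (M, 1000000 tags). Germ cell markers (5 miRNAs of the miR-34b, miR-34c and miR-449 group) summed to 257792 to 330221 counts per 1000000 mature tags (CPM) in Germ and to at most 1273 elsewhere. The miR-143 and miR-145 arms were used as smooth muscle markers. Their summed mean was higher in Sertoli (37230) than in PTM (22085), VSMC (17811), TSMC (17144) or ISMC (10534). They thus did not separate the smooth muscle types from Sertoli and PTM. Means in Leydig (4798) and Germ (2502) were below those of the smooth muscle types, though the lowest ISMC library (4521) lay within the Leydig range (3980 to 5875). The 2 gonadal miR-202 arms summed to 0.176 to 1.78 CPM in smooth muscle libraries and 152 to 1215 in testicular ones. Their mean was highest in PTM (1063), above Sertoli (653), Leydig (449) and Germ (310), so they did not mark Sertoli cells. Epithelial markers (6 miRNAs) summed to 847 to 985 CPM in Germ and at most 281 elsewhere, and 5 blood markers to 36.8 to 920 CPM over all libraries. Leydig cells had no marker list.

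miR-29a-3p carried nearly the whole family. It made up 99.6% of all tags of the 5 listed members, 99.2% to 99.9% of the 3 guides in each library, and 94.7% of the 7 arms. It ranked 9th to 35th among the mature miRNAs of a library. All 7 arms are 22 to 25 bases long, so length hardly enters a comparison of their CPM. How evenly library preparation captured the different sequences was not tested, and levels of different arms are compared as counted.

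In VSMC, miR-29a-3p stood at 22101, 19333 and 14313 CPM. TSMC held 9993, 24052 and 12270 CPM, and ISMC held 10667, 10202 and 12206 CPM. All 9 smooth muscle libraries were thus at 9993 CPM or higher, with the second TSMC library the highest of all and far above the other TSMC libraries. The 2 endothelial miR-126 arms were also highest in VSMC (3400 to 3875 CPM, against 96.7 to 1648 elsewhere), and their part in the VSMC level was not tested. Leydig cells held 9611, 6325 and 8632 CPM. Sertoli cells held 9001, 10258 and 4014 CPM. PTM cells held 5429, 5153 and 9348 CPM, and the libraries of these 3 testicular types overlapped one another. They reached the lowest smooth muscle values only in the second Sertoli library. Germ cells held 6319, 3623 and 4923 CPM, from 3316 to 3789 tags. The Germ libraries overlapped those of PTM and Sertoli cells on this scale.

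By mean, the order was VSMC (18582 ± 3948 CPM, SD, n = 3), TSMC (15438 ± 7546), ISMC (11025 ± 1049), Leydig (8189 ± 1687), Sertoli (7758 ± 3302), PTM (6643 ± 2346) and Germ (4955 ± 1348). Of the 6 pairs of neighbours in this order, 5 were not past the threshold (adjusted p from 0.69 to 0.84). Among these 5, ISMC lay below Leydig on the scale of the test (log2 difference −0.225). PTM and Germ were past the threshold (log2 difference 1.54, adjusted p = 0.0053, with 57.0% of all miRNAs called between these types). These are edgeR quasi-likelihood tests with Benjamini-Hochberg adjustment over 846 miRNAs, on counts scaled with TMM, which raises the scaled somatic levels relative to Germ. With RLE scaling, library totals or DESeq2 that pair was not past the threshold (log2 difference 0.453, 0.423 and 0.453, adjusted p from 0.29 to 0.36), nor without the first Germ library (1.09, adjusted p = 0.059).

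**Figure D1:**
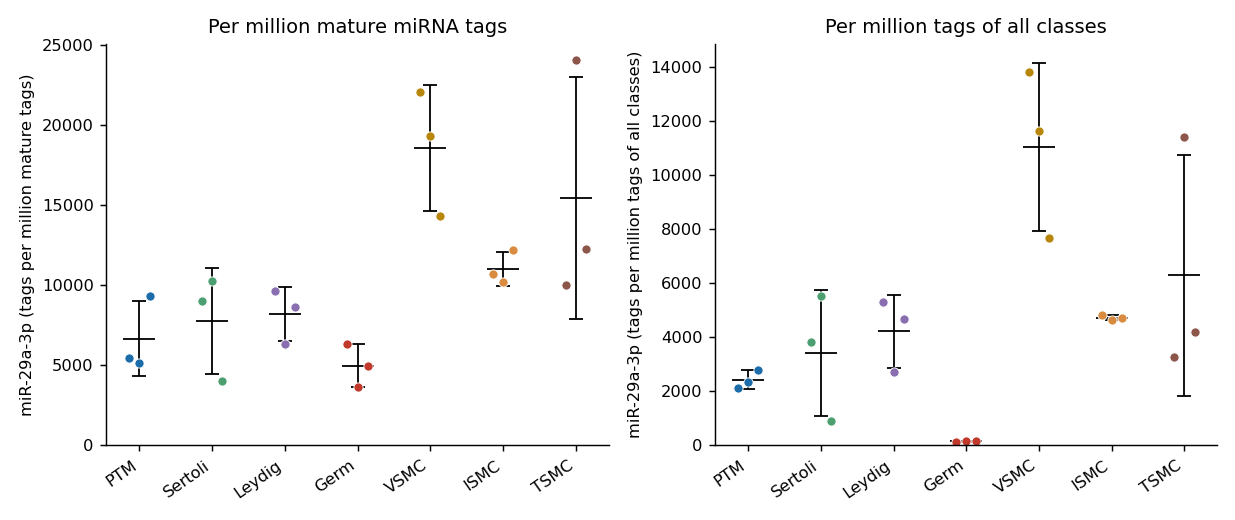
miR-29a-3p in each of the 21 libraries, per 1000000 mature tags (left) and per 1000000 tags of all classes (right), both on linear axes from 0. Points are libraries, bars are the mean ± SD of 3. On the left, the 9 smooth muscle libraries lie at 9993 or higher, overlapped by 1 Sertoli library at 10258, and Germ lies at 128 to 145 on the right, under every other library.

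Per 1000000 tags of all classes, miR-29a-3p stood at 128, 138 and 145 in Germ and at 888 to 13809 in the other 18 libraries, with no overlap. Most mature miRNAs were lower in Germ on this scale: with tags of all classes as library size the median of all tested was −4.31 on the log2 scale, against −5.11 for miR-29a-3p. These values are shares of a library's tags, and mature tags took 2.02% to 3.8% of tags in Germ and 22.1% to 62.5% elsewhere. How far that share sets the Germ level was not tested. In bulk samples like these, a smaller fraction of cells that hold a miRNA and less of it per cell cannot be told apart. As a share of mature tags the 5 members together took 1.86 ± 0.40% in VSMC, 1.55 ± 0.76% in TSMC and 1.11 ± 0.11% in ISMC (SD, n = 3). They took 0.826 ± 0.170% in Leydig, 0.780 ± 0.331% in Sertoli, 0.670 ± 0.235% in PTM and 0.499 ± 0.135% in Germ. The 9 smooth muscle libraries ranged from 1.0% to 2.41% and the 9 of PTM, Sertoli and Leydig from 0.405% to 1.03%, so these ranges touched.

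miR-29c-3p was the next guide. Leydig cells held the most, 33.97, 19.09 and 22.87 CPM. Germ held 22.87, 11.49 and 25.99 CPM, which rest on only 12, 11 and 20 tags. Sertoli cells held 15.52, 25.43 and 9.152 CPM. PTM cells were the most even of the testicular types, with 15.18, 14.04 and 18.60 CPM. In smooth muscle it stood at 16.94, 12.49 and 10.28 CPM in VSMC and at 8.388, 5.895 and 9.71 CPM in ISMC. TSMC held 8.624, 22.33 and 10.66 CPM, with the second library again apart. ISMC was thus the lowest type and Leydig the highest, and these 2 did not overlap (the share of all miRNAs without overlap was not counted). The order of mean CPM was Leydig, Germ, Sertoli, PTM, TSMC, VSMC and ISMC. The TMM scale of the tests did not keep this order, as Germ lay below Sertoli there (log2 difference −0.907, adjusted p = 0.18). Of the neighbours by mean CPM, Leydig and Germ differed past the threshold on the TMM scale (log2 difference 1.69 ± 0.56, adjusted p = 0.012), though they overlapped in CPM (63.2% of all miRNAs were called between these types). That call was lost with RLE scaling (0.456), library totals (0.346) and DESeq2 (0.467), and without Leydig 1 or 3, Germ 1 or 2, VSMC 1 or 3, or ISMC 1 (adjusted p from 0.053 to 0.16).

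miR-29b-3p was the rarest guide, with means from 4.51 CPM in PTM and Sertoli to 8.82 CPM in Germ and library values from 2.97 to 14.29 CPM. The Germ mean rests on 2, 8 and 11 tags, and the types overlapped throughout. No pair of neighbours in its order was past the threshold (adjusted p from 0.38 to 1.0). miR-29c-3p was above miR-29b-3p in 21 of 21 libraries.

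The 5p arms did not follow their 3p partners in abundance. miR-29a-5p, the passenger of the dominant guide, had 0 to 20 tags a library. Its type means ran from 0.515 CPM in PTM to 1.495 CPM in Sertoli. It was at 0 in 3 libraries, which allows up to 0.485 CPM in the third PTM library and up to 5.72 and 3.13 CPM in the first and second Germ libraries (3 tags, counting error only). No pair of types differed past the threshold for it.

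miR-29c-5p was above its own guide in all 18 somatic libraries and below it in the 3 of Germ. Leydig cells held 40.88, 22.74 and 34.95 CPM. PTM cells held 28.38, 28.88 and 37.52 CPM. Sertoli cells held 17.64, 26.31 and 25.48 CPM. Leydig and PTM were the upper types here, although the second Leydig library lay within the Sertoli range. VSMC held 23.12, 26.42 and 22.84 CPM, ISMC 20.36, 19.80 and 16.32 CPM, and TSMC 21.23, 23.66 and 18.74 CPM. Germ held 5.717, 4.176 and 12.99 CPM from 3, 4 and 10 tags, under every somatic library. The share of all miRNAs for which this holds was not counted, and 41.5% of all were called lower in Germ than in the somatic mean.

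miR-29b-1-5p, from the hairpin next to Mir29a, was the second most abundant arm of the family and exceeded the shared miR-29b-3p entry in 21 of 21 libraries. It reached 901.5, 995.7 and 1032 CPM in TSMC. ISMC held 791.5, 595.6 and 590.4 CPM, and VSMC held 711.5, 534.6 and 618.0 CPM. Sertoli (304.7 to 817.5 CPM), Leydig (344.0 to 715.8) and PTM cells (380.3 to 610.3) each had 1 library far above the other pair. Germ held 78.13, 78.31 and 98.74 CPM, all below the lowest somatic library, and again the share of all miRNAs for which this holds was not counted. miR-29b-2-5p, from the other copy of the gene, lay at 9.40 to 26.44 CPM in somatic libraries and at 1.30 to 4.18 CPM in Germ (1 to 4 tags), below miR-29b-1-5p in 21 of 21 libraries.

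**Figure D2:**
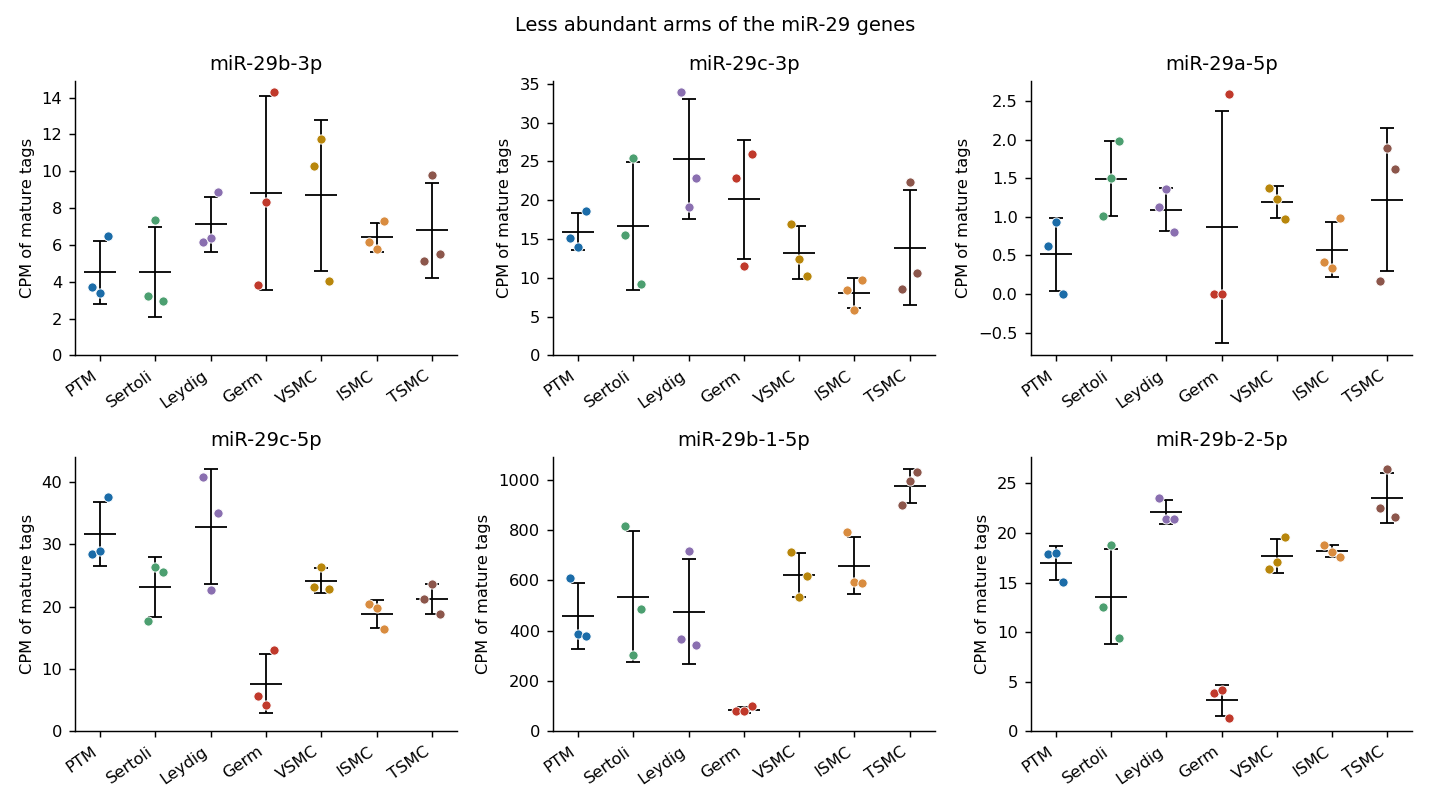
The 6 less abundant arms, in CPM of mature tags by cell type, each panel with its own linear axis. Points are libraries, bars are the mean ± SD of 3. miR-29c-5p, miR-29b-1-5p and miR-29b-2-5p were lowest in Germ, while the guides miR-29b-3p and miR-29c-3p overlapped between Germ and somatic types.

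To ask which members differed between any of the types, all 21 libraries were fitted together. In edgeR's quasi-likelihood framework, with adjustment by Benjamini-Hochberg, 3 of the 5 members were called, miR-29a-3p (adjusted p = 0.00081), miR-29c-3p (0.0085) and miR-29c-5p (0.00028). This share does not stand out, since 80.7% of all 846 miRNAs tested were called. miR-29b-3p (adjusted p = 0.57) and miR-29a-5p (0.43), the rarest members, were not. Both added arms were called (miR-29b-1-5p, adjusted p = 6e-06; miR-29b-2-5p, 2.1e-05).

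Between pairs of types, 21 of 105 tests of the 5 members were called, against 36.8% of all miRNA and pair combinations. With Germ in the pair, 13 of 30 were called (60.8% of all). Between a smooth muscle type and PTM, Sertoli or Leydig, 8 of 45 were called (38.8% of all). Among the 3 smooth muscle types 0 of 15 were called by edgeR, 0 by DESeq2 and 0 at an unadjusted p under 0.05, where 1.85% of all were called. Among PTM, Sertoli and Leydig cells the same counts were 0 of 15, 0 and 0 (17.8% of all). No member differed past the threshold between PTM and Sertoli or Leydig cells, which does not show that their levels are equal.

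Of the single pairs outside Germ, miR-29c-3p in Leydig against ISMC showed the largest difference (log2 2.31 ± 0.55, adjusted p = 0.0024), and it was called in all 30 alternatives (36.4% of all miRNAs were called in this pair). miR-29a-3p was lower in PTM than in VSMC (−1.16 ± 0.44, adjusted p = 0.036), with 5153 to 9348 CPM against 14313 to 22101 (43.1% of all called). That call was lost in 11 of 30 alternatives, 9 of them by leaving out PTM 1 or 2, any Leydig or VSMC library, or ISMC 1 (adjusted p from 0.06 to 0.16). miR-29c-3p was higher in PTM than in ISMC (1.38, adjusted p = 0.045; 40.5% of all called), a call lost in 20 of 30 alternatives (15 of them by leaving out 1 library, any of PTM, Leydig, ISMC or TSMC, Germ 1, or VSMC 1 or 3, adjusted p from 0.052 to 0.15).

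The comparison of germ cells with the mean of the 6 somatic types gave the largest differences of the 4 grouped comparisons for miR-29a-3p, miR-29c-5p and the 2 added arms. miR-29a-3p was lower in Germ (log2 −2.09 ± 0.39, adjusted p = 6.8e-05), and so was miR-29c-5p (−2.59 ± 0.47, adjusted p = 5.5e-05). These 2 of 5 members were called lower. Of all miRNAs 65.6% were called, 24.1% higher and 41.5% lower, and the median of all miRNAs tested was itself −1.77 with TMM (−0.83 with RLE scaling, −0.775 with library totals and −4.31 with tags of all classes). Relative to that median miR-29a-3p stood at −0.323 and miR-29c-5p at −0.824. miR-29b-1-5p (−3.74 ± 0.43, adjusted p = 9.1e-08) and miR-29b-2-5p (−3.66 ± 0.47, adjusted p = 6.1e-07) were further below it, at −1.98 and −1.89.

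The 2 rarer guides did not follow. miR-29c-3p (−0.51 ± 0.45, adjusted p = 0.32) and miR-29b-3p (−0.35 ± 0.51, adjusted p = 0.57) were not past the threshold and lay 1.25 and 1.42 above the median of all miRNAs. Their sign turned with RLE scaling (0.389 and 0.509), library totals (0.441 and 0.549) and DESeq2 (0.377 and 0.517). miR-29a-3p and miR-29c-5p were lower and called in 29 of 29 alternatives, at −5.11 to −1.08 and −5.60 to −1.70.

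Smooth muscle types were then set against the somatic testicular types, the mean of VSMC, ISMC and TSMC against that of PTM, Sertoli and Leydig. miR-29c-3p was lower in smooth muscle (log2 −1.21 ± 0.31, adjusted p = 0.0018), with a median of 10.28 CPM over 9 libraries (5.895 to 22.33) against 18.60 (9.152 to 33.97). The other arm of its hairpin, miR-29c-5p, was lower too (−0.89 ± 0.27, adjusted p = 0.0067), with a median of 21.23 CPM (16.32 to 26.42) against 28.38 (17.64 to 40.88). The ranges of both arms overlapped between the groups. These 2 of 5 members were called lower. Of all miRNAs 57.7% were called, 25.3% higher and 32.4% lower. miR-29b-2-5p, from the gene beside Mir29c, was not past the threshold (−0.29 ± 0.23, adjusted p = 0.3).

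miR-29a-3p leaned the other way in the same comparison (0.50 ± 0.25, adjusted p = 0.088), with a median of 12270 CPM in smooth muscle (9993 to 24052) against 8632 (4014 to 10258). Its call depended on scaling. It was higher and called with RLE scaling (0.815, adjusted p = 0.0015), library totals (0.969, 0.0007), tags of all classes (1.08, 0.0033) and DESeq2 (0.815, 0.00027), as well as with no filter (0.76, 0.013) and without Sertoli 2 (0.65, 0.026), Germ 1 (0.723, 0.0093) or TSMC 1 (0.629, 0.038). Relative to the median of all miRNAs it stood 0.66 higher under TMM (median −0.16). With RLE scaling, library totals, tags of all classes and DESeq2 it stood 0.66 to 0.70 higher (medians 0.117 to 0.42). RLE scaling and DESeq2 gave nearly the same values here. On the same relative scale miR-29c-3p stood at −1.05 with TMM and at −1.06 with tags of all classes, where it was no longer called (−0.64, adjusted p = 0.11). The call of miR-29c-5p was lost with library totals (−0.439, adjusted p = 0.083), tags of all classes (−0.315, 0.35) and without the filter (−0.636, 0.086). miR-29b-1-5p (0.19 ± 0.24 with TMM, adjusted p = 0.53) was called higher with library totals (0.592, 0.019), tags of all classes (0.741, 0.018) and DESeq2 (0.464, 0.048).

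PTM cells against the mean of the 3 smooth muscle types gave 1 called member of 5, against 47.5% of all miRNAs (28.7% called higher and 18.8% lower). This was miR-29c-5p (log2 0.93 ± 0.36, adjusted p = 0.036), with 28.38 to 37.52 CPM in PTM and 16.32 to 26.42 CPM in smooth muscle, without overlap. The call was lost in 16 of 30 alternatives. These were RLE scaling (0.615, adjusted p = 0.1), library totals (0.569, 0.12), tags of all classes (0.263, 0.61), no filter (0.641, 0.26) and leaving out any PTM or ISMC library, Leydig 3, Germ 1, VSMC 1 or 3, or TSMC 2 or 3 (adjusted p from 0.05 to 0.10). miR-29a-3p was not past the threshold (−0.81 ± 0.37, adjusted p = 0.079). Its 3 PTM values (5153 to 9348 CPM) lay below all 9 of smooth muscle (9993 to 24052). It was called lower in 9 of 30 alternatives, including RLE scaling (−1.09, adjusted p = 0.0046), library totals (−1.14, 0.0067), DESeq2 (−1.09, 0.00073), the fit without Germ (−0.793, 0.04) and without Sertoli 3, Germ 1 or TSMC 1 (0.02 to 0.047). miR-29c-3p stood at 0.85 ± 0.41 (adjusted p = 0.093) and was called higher in 4 of 30 alternatives. The share of all miRNAs without overlap between PTM and smooth muscle libraries was not counted, so the absence of overlap in miR-29c-5p and miR-29a-3p may be common.

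PTM cells against the mean of the other testicular types, Sertoli, Leydig and Germ, also gave 1 called member of 5, against 26.6% of all miRNAs (22.8% called higher and 3.78% lower). miR-29c-5p was higher in PTM (log2 1.07 ± 0.37, adjusted p = 0.035), as were the added arms miR-29b-1-5p (1.06 ± 0.32, 0.019) and miR-29b-2-5p (1.14 ± 0.33, 0.015). The median of all miRNAs in this comparison was 0.81, and the 3 arms lay 0.25 to 0.33 above it. All 3 calls were lost in the fit without Germ libraries, where the values were 0.0142, −0.251 and −0.18 (adjusted p = 0.99, 0.72 and 0.78). Leaving out single libraries also ended the call of miR-29c-5p for any PTM or Leydig library, Sertoli 1, Germ 1, VSMC 1 or 3, or ISMC 1 (adjusted p from 0.056 to 0.11). Those of miR-29b-1-5p (PTM 1, Leydig 1 or 3, VSMC 1 or 3, ISMC 1; 0.055 to 0.16) and miR-29b-2-5p (PTM 1 or 2, Leydig 2; 0.053 to 0.089) were ended as well. miR-29a-3p stood at 0.21 ± 0.35 (adjusted p = 0.66) and miR-29c-3p at −0.11 ± 0.43 (0.87).

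**Figure D3:**
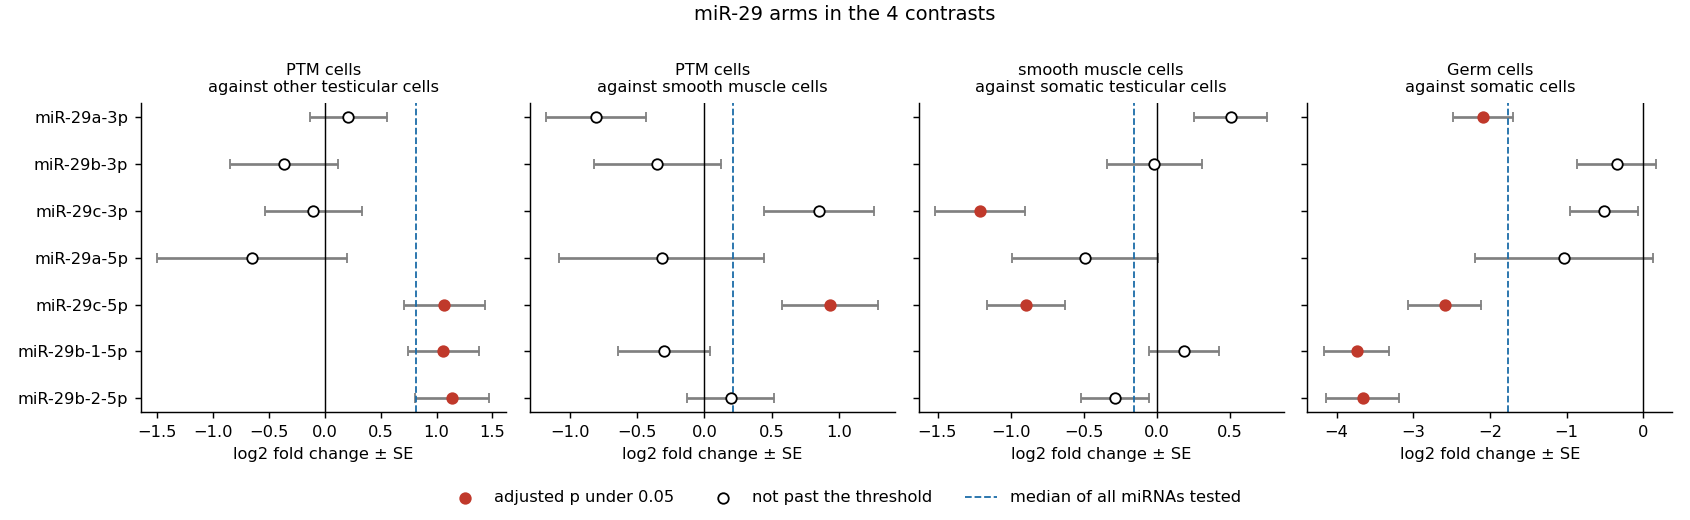
Fitted log2 fold change ± SE of the 7 arms in the 4 comparisons (linear axes, a different range in each panel). Filled points had an adjusted p under 0.05, open points did not, and the dashed line is the median of all 846 miRNAs tested. In Germ, 4 arms lay below the dashed line and 3 above it. In PTM against other testicular cells the called arms lay close to it.

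Because scaling moved several of these calls, members were also compared within each library, as log2 ratios of counts with 0.5 added, which need no scaling between libraries. Ratios were tested over libraries with two-sided exact permutation tests, adjusted over 12 planned tests. Libraries of a type were shuffled as separate units, so these p-values do not measure the spread between cell types. The balance of the 2 leading guides separated the smooth muscle types from the rest. miR-29c-3p over miR-29a-3p was −10.34 ± 0.22 on the log2 scale in the 9 smooth muscle libraries and −8.62 ± 0.31 in the 9 of PTM, Sertoli and Leydig (SD). The lowest of the latter (−9.17) was above the highest of the former (−10.07), and the difference of −1.72 had a permutation p of 4.1e-05, the smallest that 48620 splits allow (adjusted p = 0.00049).

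By type, there were 402 miR-29a-3p tags for each miR-29c-3p tag in PTM, 465 in Sertoli, 328 in Leydig and 246 in Germ, from the mean log2 ratio. The same figure was 1407 in VSMC, 1393 in ISMC and 1121 in TSMC. These guides differ by C10U alone, and how many miR-29c-3p tags were miR-29a-3p tags with a base error was not tested. The difference kept its sign and its call in 23 of 23 alternatives (−1.79 to −1.66). PTM cells alone against smooth muscle differed by 1.69 without overlap (exact permutation p = 0.0045, the smallest that 220 splits allow, adjusted p = 0.011). Germ stood 1.54 above the other 18 libraries (exact permutation p = 0.0023, adjusted p = 0.009), overlapping the upper end of Leydig cells.

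miR-29b-3p over miR-29a-3p went the same way with a smaller difference. Smooth muscle was lower by 0.533 on the log2 scale than PTM, Sertoli and Leydig (−11.00 ± 0.35 and −10.47 ± 0.43, permutation p = 0.011, adjusted p = 0.022), with overlap. Germ was higher by 1.60 (exact permutation p = 0.003, adjusted p = 0.009) on 2 to 11 tags of miR-29b-3p. PTM against smooth muscle (0.489, adjusted p = 0.07 in the exact permutation test) was not past the threshold, although its libraries did not overlap. The ratio of miR-29a-5p to miR-29a-3p was not past the threshold in any of its 3 permutation tests with 0.5 added (adjusted p from 0.12 to 0.95). With 0 to 20 tags of miR-29a-5p a library the result moved with the number added. Germ was above the other libraries with 1 added (2.11, exact permutation test, adjusted p = 0.012) and with 5 added (3.41, 0.0018). Smooth muscle was below PTM, Sertoli and Leydig with 5 added (−1.06, permutation test, adjusted p = 0.0068) and without PTM 3 (−1.45, 0.0032).

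The balance of the arms of miR-29c separated Germ from the rest. miR-29c-5p over miR-29c-3p was −1.39 ± 0.44 in Germ and 0.80 ± 0.50 in the other 18 libraries, a difference of −2.19. The Germ libraries (−1.84 to −0.97) did not overlap the others (0.05 to 1.74), with an exact permutation p of 0.00075, the smallest that 1330 splits allow (adjusted p = 0.0045). Per tag of miR-29c-3p there were 0.383 tags of miR-29c-5p in Germ and 1.30 to 2.38 in the somatic types. The Germ ratios rest on only 3, 4 and 10 tags of miR-29c-5p and 12, 11 and 20 of miR-29c-3p. Smooth muscle against PTM, Sertoli and Leydig (0.316, adjusted p = 0.23) and PTM against smooth muscle (0.0252, adjusted p = 0.95) were not past the threshold in the same permutation tests.

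A ratio added after the values were seen set miR-29b-1-5p against miR-29a-3p, whose genes are neighbours on the same strand. It was −5.82 ± 0.43 in Germ and −4.12 ± 0.71 in the other 18 libraries, without overlap (difference −1.71, exact permutation p = 0.00075, adjusted p = 0.0045 over 18 tests). In Germ 56.7 miR-29a-3p tags were counted for each miR-29b-1-5p tag, and in somatic types 14.3 to 29.6. The ratio of miR-29b-2-5p to miR-29b-1-5p, added in the same way, was not past the threshold (adjusted p from 0.051 to 0.38 in 3 permutation tests).

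**Figure D4:**
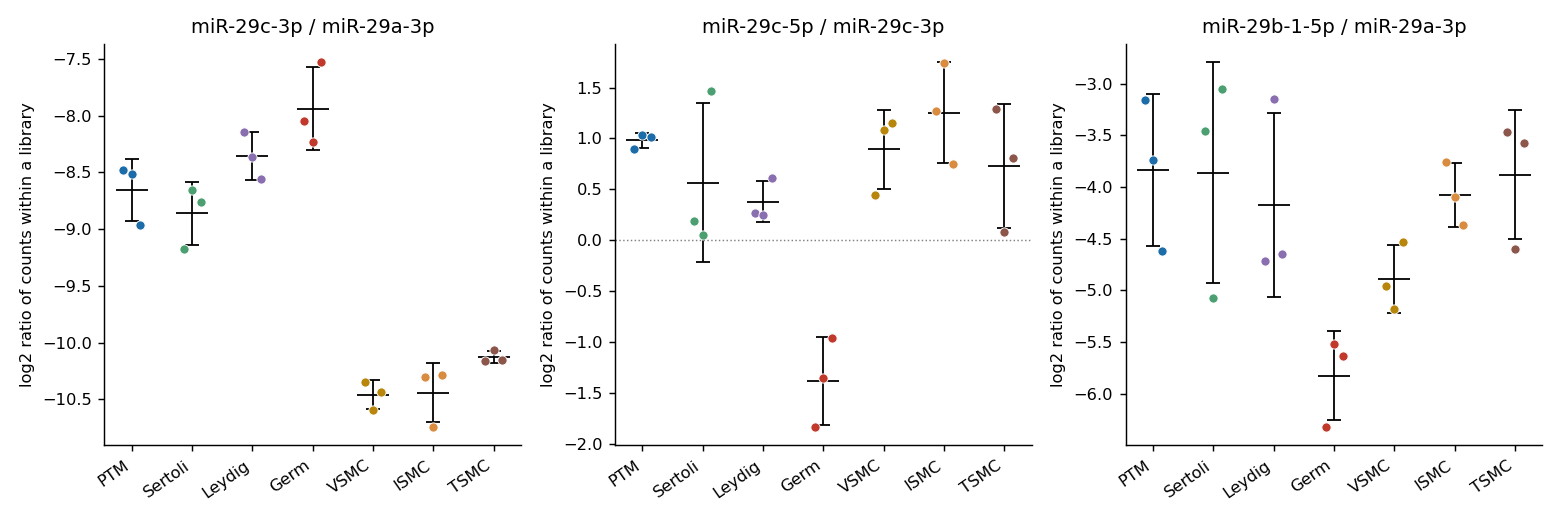
Log2 ratios of counts within each library, by cell type. Points are libraries, bars are the mean ± SD of 3, and the dotted line marks equal counts. The 9 smooth muscle libraries lie between −10.74 and −10.07 on the left, and the 3 Germ libraries lie under every other library in the middle and on the right.

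Among 268 miRNAs tested with a mean of at least 50 CPM, those most like each guide were named by the Pearson correlation of log2(CPM + 1) over 21 libraries, as a description only. Libraries of a type share their cells and the profiles share their totals. miR-29a-3p was followed most closely by miR-484 (0.82), miR-28a-5p (0.82), miR-543-3p (0.80) and miR-329-3p (0.80). All 4 had their highest means in VSMC or ISMC, such as 752 CPM of miR-28a-5p in VSMC against 266 CPM in PTM and 170 CPM in Germ. miR-29c-3p was followed by miR-146b-5p (0.73), miR-26b-5p (0.70), miR-26a-5p (0.66) and miR-103-3p (0.65). Of these, the first 3 were highest in Leydig cells, and miR-26a-5p stood at 21678 CPM there and 5619 CPM in ISMC. The best match of miR-29b-3p was weak (miR-324-5p, 0.56), followed by miR-30a-5p (0.51), miR-700-5p (0.47) and miR-140-5p (0.46).

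A literature list of 23 miRNAs linked to matrix or TGF-β signalling, chosen with earlier results of these data known, gives the setting. It holds pro-fibrotic and anti-fibrotic miRNAs, so its direction has no single meaning. Against other testicular cells PTM had 7 of 23 higher, 1 lower and 15 not past (median log2 0.59, against 0.81 for all miRNAs, of which 22.8% were higher and 3.78% lower). Against smooth muscle it had 12 higher, 1 lower and 10 not past (median 0.92, all miRNAs 0.22, with 28.7% higher and 18.8% lower). Smooth muscle against somatic testicular cells gave 0 higher, 15 lower and 8 not past (median −1.16, all miRNAs −0.16, with 25.3% higher and 32.4% lower). Germ gave 7 higher, 14 lower and 2 not past (median −2.06, all miRNAs −1.77, with 24.1% higher and 41.5% lower).

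The 6 most abundant of the list were miR-34a-5p, miR-143-3p, miR-21a-5p, miR-24-3p, miR-26a-5p and miR-214-3p, with 7043 to 20583 CPM on average. In smooth muscle against somatic testicular cells, miR-26a-5p was lower (log2 −1.44 ± 0.22, adjusted p = 7.2e-06), the direction that miR-29c-3p took. miR-21a-5p, which is induced in fibrosis (−0.36 ± 0.28, adjusted p = 0.28), miR-24-3p (0.44 ± 0.29, 0.19) and miR-214-3p (0.49 ± 0.45, 0.37) were not past the threshold, nor were miR-34a-5p (−0.40 ± 0.22, 0.12) and miR-143-3p (−0.50 ± 0.34, 0.22). With TMM all 6 were lower in Germ than the mean of the somatic types, from −1.16 ± 0.32 for miR-26a-5p (adjusted p = 0.0027) to −4.15 ± 0.81 for miR-214-3p (0.00016). Of all miRNAs 41.5% were called lower there and the median of all was −1.77, so miR-26a-5p was above that median. In CPM miR-26a-5p stood at 8220 in Germ, above ISMC (5619) and TSMC (6404) and below the other types. Other scalings are not given for these 6.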

How the data were processed

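Small RNA was sequenced from 21 libraries, 3 for each of 7 cell types, with groups taken from the labels. Per the labels' protocols, RNA was taken with TRNzol and libraries followed a BGI protocol. Bowtie2 and the build mm10 are named in the submitters' processing notes. No source used here gives adapter removal, size selection or the miRNA database version. The authors deposited 1 table of 61628 entries with whole-number counts and TPM values. The deposited TPM are counts per 1000000 tags of all classes, with a count of 0 written as 0.001, and served only as a check.

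The members, lists, tests and alternatives were chosen with earlier results of these data known. miRNAs named beyond the members are the 4 best correlated with each guide at 50 CPM or more and the 6 most abundant of the matrix list. CPM are counts per 1000000 mature tags. Mature entries that reached 10 counts in 3 or more libraries (846) were scaled with TMM and tested with edgeR 4.0.16 (R 4.3.3), robust quasi-likelihood, all libraries in 1 fit (14 residual degrees of freedom), with Benjamini-Hochberg adjustment within a comparison and a threshold of 0.05. Comparisons that share libraries are not independent. The script was tested on simulated counts. Ratios were tested with exact permutation tests (SciPy 1.17.1). Alternatives were RLE scaling, library totals, tags of all classes as library size, no filter, a filter of 50 counts, DESeq2 1.42.0, no robust estimation, a replicate block, a fit without Germ and each library left out. Limits of a count of 0 and counts cover counting error only. No library of a type duplicated another (lowest chi-square per degree of freedom 161).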

Additional observations from a re-analysis of the deposited data

Results flagged for a closer look

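The table also holds an Rfam entry for the mir-29 precursor, outside the mature entries compared above, with 64493 tags over the 21 libraries. It is given because it is a signal in data that the comparisons do not use. It stood at 1.83 to 2.11 per 1000000 tags of all classes in Germ and at 33.0 to 440 in the other 18 libraries, without overlap. Mature tags took 2.02% to 3.8% of all tags in Germ and 22.1% to 62.5% elsewhere. By type its mean was 41.5 in PTM, 122 in Sertoli, 208 in Leydig, 320 in VSMC, 110 in ISMC and 207 in TSMC. Per 100 tags of miR-29a-3p there were 1.18 to 6.56 tags of it over all libraries and 1.33 to 1.57 in Germ. Which of the 4 genes these tags come from is not stated in the table.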

How the results depend on the processing

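Of 2097 alternative values, 1837 were labelled as unchanged. For fold changes and ratios this means the same direction and the same side of the threshold. For shares it means a value within the SD, and for counts of called members a count near the main one. Counts of 14 to 25 called pairs were thus labelled as unchanged from 21. Counts of called members moved most with tags of all classes as library size: 5 (in place of 3) among the 7 types, 1 in smooth muscle against somatic testicular cells, 5 in Germ and 36 of 105 in pairs. PTM against other testicular cells gave 0 with RLE scaling, library totals, no filter or no Germ, and 0 to 1 without single libraries. PTM against smooth muscle gave 2 with the stricter filter or DESeq2, 3 without Germ and 0 to 2 without single libraries. The cause was not tested. Values that turned were miR-29a-3p in PTM against other testicular cells (−0.128 with RLE, −0.0342 with library totals, −0.128 with DESeq2, −0.471 without Germ), and miR-29c-3p there (0.649 with tags of all classes, −0.309 to 0.126 without single libraries), all uncalled, and the called miR-29b-1-5p (−0.251) and miR-29b-2-5p (−0.18), which turned without Germ. In Germ against somatic cells miR-29b-3p turned to 0.509 (RLE), 0.549 (library totals) and 0.517 (DESeq2), with −0.827 to 0.422 without single libraries, and miR-29c-3p to 0.389, 0.441 and 0.377.

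Among ratios, miR-29b-3p over miR-29a-3p in PTM against smooth muscle passed with 5 added (0.563) and ranged from 0.392 to 0.529 without single libraries. miR-29a-5p over miR-29a-3p passed the threshold in Germ with 1 and 5 added (2.11 and 3.41), and with 5 added (−1.06) in smooth muscle against PTM, Sertoli and Leydig (−1.45 to −0.709 without single libraries). It turned to 0.237 and 0.799 in PTM against smooth muscle with 1 and 5 added (−0.891 to 1.34 without single libraries). miR-29c-5p over miR-29c-3p in PTM against smooth muscle ranged from −0.084 to 0.123. As shares of all tags the 5 members took 0.243% in PTM, 0.342% in Sertoli, 0.425% in Leydig, 0.0138% in Germ, 1.11% in VSMC, 0.473% in ISMC and 0.63% in TSMC.

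Replicate numbers did not pair libraries: same-numbered libraries of different types correlated at −0.263 to 0.313 (63 pairs, 11 over 0.1), and 6 of 21 correlated best with their own number. With the replicate block, 3 members were called among the types, 1, 1, 2 and 2 in the 4 comparisons, and 18 (in place of 21) in pairs, without miR-29a-3p in PTM against VSMC (adjusted p = 0.052), miR-29c-3p in PTM against ISMC (0.059) and miR-29c-5p in Leydig against TSMC (0.061). Germ values of miR-29b-3p, miR-29c-3p and the 5p arms rest on 0 to 20 tags a library (41 to 76 for miR-29b-1-5p), which limits them most.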

Other observations

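Arms whose genes are neighbours were also set side by side across libraries, as Pearson correlations of log2(CPM + 1), a description without a test in which libraries of a type share their cells. Over all 21 libraries miR-29a-3p and miR-29b-1-5p, from the chromosome 6 pair, gave 0.59, and over the 18 somatic libraries 0.36. miR-29c-5p and miR-29b-2-5p, from the chromosome 1 pair, gave 0.71 over 21 libraries and 0.10 over the somatic 18. The 5p arms miR-29b-1-5p and miR-29b-2-5p, on different chromosomes, gave 0.83 and 0.18. In these 3 pairs the value over 21 libraries was larger than that over the somatic libraries, while miR-29c-3p and miR-29b-2-5p, also neighbours on chromosome 1, gave −0.17 and 0.30. In Germ miR-29c-5p, miR-29b-1-5p and miR-29b-2-5p were lower than in any somatic library. The share of all miRNAs for which this holds was not counted, and 41.5% of all were called lower in Germ.

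Among somatic libraries alone the values nearest to 1 were those of miR-29a-3p with miR-29b-3p (0.74) and of miR-29c-5p with its own guide miR-29c-3p (0.66). miR-29c-5p and miR-29b-1-5p ran opposite to each other there (−0.72), and miR-29a-3p with miR-29c-3p gave 0.07.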
